A study of Mus musculus with 32 samples.

Results

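Transcripts of 8 genes used as landmarks of the neural lineage were followed through 32 RNA-seq libraries of E14 mouse embryonic stem cells. The 8 genes are Pax6, Sox1, Nes, Map2, Tubb3, Ncam1, Zbtb20 and Ngfr, taken by symbol from the deposited tables, which hold 17440 genes in all. The list was chosen by the normalised counts of these same libraries, which had already singled out Map2 with wild-type CTCF and Zbtb20 with IAA and wild-type CTCF; those values are given as descriptions. Sox1, Nes, Map2, Tubb3, Ncam1, Zbtb20 and Ngfr were read in all 5 tables. Pax6 was read in the RAD21, serum and hairpin tables (14 libraries). No complete line for Pax6 was found in the CTCF and overexpression tables, so it could not be analysed there.

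All libraries came from E14 cells in which an auxin-inducible degron (AID) was attached to CTCF or to RAD21, a tag that lets a small molecule trigger destruction of the tagged protein. CTCF is a zinc finger protein that binds DNA and anchors chromatin loops, and RAD21 is a subunit of cohesin, the ring complex that forms them. CTCF AID cells received 500 uM indole-3-acetic acid (IAA) for 0, 12 or 24 h. RAD21 AID cells received 1 uM of the auxin analogue 5-Ph-IAA for the same times. A further CTCF AID series, labelled serum, was sampled at 0 and 12 h of 500 uM IAA. CTCF AID cells also carried a control hairpin or a hairpin against Chd4, an ATPase of the nucleosome remodelling and deacetylase (NuRD) complex. The last series compared CTCF AID cells overexpressing CTCF, either wild-type or mutated, with an overexpression control, each with and without 500 uM IAA. IAA was given for 12 h to the control and to the cells with mutated CTCF. For wild-type CTCF with IAA no time was taken, as title and treatment label disagree. The growth protocol describes serum-free medium with LIF and the inhibitors PD0325901 and CHIR99021 for every library, those labelled serum included. Each of the 16 groups had 2 libraries. No label says that the 2 came from separate cultures, so the p-values below measure only the spread between these libraries. Groups follow the sample titles; for 4 overexpression libraries the treatment label says otherwise, namely those titled mutated CTCF without IAA and wild-type CTCF with IAA.

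During neural development the SOX1 and PAX6 transcription factors mark neural progenitors, and nestin (Nes), an intermediate filament protein, marks the progenitor cytoskeleton. Neurons that leave the cycle build microtubules with the beta-III tubulin encoded by Tubb3 and stabilise them in dendrites with the microtubule-associated protein MAP2. The adhesion molecule NCAM1 sits on the surface of neural cells, and the p75 receptor encoded by Ngfr binds neurotrophins. ZBTB20 is a zinc finger transcription repressor with a role in the hippocampus. Embryonic stem cells in LIF with both inhibitors are held in a pluripotent state, ahead of the choice between neural and other fates.

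The stem cell label was checked first. All 8 stem cell markers were read in every table, and their summed level lay between 57280 and 127614 normalised counts per library. Of 12 neural markers, which include several of the genes described here, 5 were read in the CTCF and overexpression tables and 7 in the others, with a summed level of 2805 to 5366. Library totals were 15364584 to 19642332 normalised counts. The Chd4 transcript, target of the hairpin, had a mean of 9725 ± 281 (SD, n = 2) with the control hairpin and 3554 ± 248 with the Chd4 hairpin. The degrons act on protein, which RNA-seq does not measure, so the loss of CTCF or RAD21 was not checked here. No library came from treated cells without a degron, so an effect of IAA or 5-Ph-IAA cannot be told apart from that loss.

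The start regions of 4 of these genes are shown, chosen by their transcript levels. Tubb3, Nes and Ngfr were higher in all 3 IAA comparisons of the overexpression series, and Map2 had the largest fall with the Chd4 hairpin. Each region runs from 250 bases before to 50 bases after the RefSeq start, on GRCm38.p6, 5′ to 3′ on the strand of the gene. CpG dinucleotides are in capitals.
Tubb3, chr8:123411303-123411602, plus strand: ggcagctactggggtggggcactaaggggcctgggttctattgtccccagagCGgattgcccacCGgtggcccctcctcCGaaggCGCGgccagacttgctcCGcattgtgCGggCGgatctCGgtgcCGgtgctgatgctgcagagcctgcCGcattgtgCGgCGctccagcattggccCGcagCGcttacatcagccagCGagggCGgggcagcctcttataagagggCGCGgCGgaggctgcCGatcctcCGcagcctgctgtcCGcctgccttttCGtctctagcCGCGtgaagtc
Nes, chr3:87970843-87971142, plus strand: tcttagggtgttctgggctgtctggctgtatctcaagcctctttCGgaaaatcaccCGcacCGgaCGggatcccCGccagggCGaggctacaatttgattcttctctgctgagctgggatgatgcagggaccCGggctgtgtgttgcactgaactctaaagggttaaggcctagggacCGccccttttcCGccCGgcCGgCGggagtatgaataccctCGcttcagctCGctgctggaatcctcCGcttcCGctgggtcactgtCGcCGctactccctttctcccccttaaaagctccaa
Ngfr, chr11:95587649-95587948, minus strand: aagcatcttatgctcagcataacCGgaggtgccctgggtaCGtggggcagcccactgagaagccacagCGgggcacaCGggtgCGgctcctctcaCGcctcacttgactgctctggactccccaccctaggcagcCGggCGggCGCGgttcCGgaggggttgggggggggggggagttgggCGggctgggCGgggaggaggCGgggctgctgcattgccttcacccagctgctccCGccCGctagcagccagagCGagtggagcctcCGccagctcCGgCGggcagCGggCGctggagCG
Map2, chr1:66175079-66175378, plus strand: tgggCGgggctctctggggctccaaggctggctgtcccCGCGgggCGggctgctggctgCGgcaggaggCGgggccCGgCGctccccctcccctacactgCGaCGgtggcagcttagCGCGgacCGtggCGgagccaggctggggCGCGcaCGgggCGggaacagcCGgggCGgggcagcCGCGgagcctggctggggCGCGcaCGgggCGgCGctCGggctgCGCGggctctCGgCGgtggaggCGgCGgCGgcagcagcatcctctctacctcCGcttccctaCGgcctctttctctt
Tubb3 held 26 CpG dinucleotides, Nes 18, Ngfr 23 and Map2 37, where the median of 32851 RefSeq mouse promoters of this length was 7 (quartiles 3 to 20). The Sox1 window also held 37. That of Zbtb20 held 3, but it begins at base 43247034 of chromosome 16, inside the gene, whose annotated start is 42875881. GC content was 67.3% for Tubb3, 58.7% for Nes, 71.7% for Ngfr and 77.7% for Map2, against a median of 52.7%.

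Divided by the exon length of each gene, Tubb3 had the highest level of the 8 genes in all 16 groups, from 415 to 1458 normalised counts per kb. Nes, Ngfr and Ncam1 followed in 14 groups, in an order that changed between groups, and in both serum groups Sox1 stood above Ncam1. Pax6, Zbtb20 and Map2 were mostly the lowest. Per gene, Tubb3 ranged over the 32 libraries from 766 to 2783 normalised counts (median 1374), Nes from 504 to 2466 (1104), Ncam1 from 150.3 to 1194 (1005) and Ngfr from 228 to 1097 (549). Sox1 ranged from 26.4 to 203 (88.3), Map2 from 8.36 to 694 (86.8), Zbtb20 from 18.4 to 1607 (71.9) and, over 14 libraries, Pax6 from 2.43 to 60.5 (15.6). The tables were normalised separately, so a level set across them is a description. In bulk RNA a lower level cannot be told apart from fewer cells that hold the transcript.

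**Figure D1:**
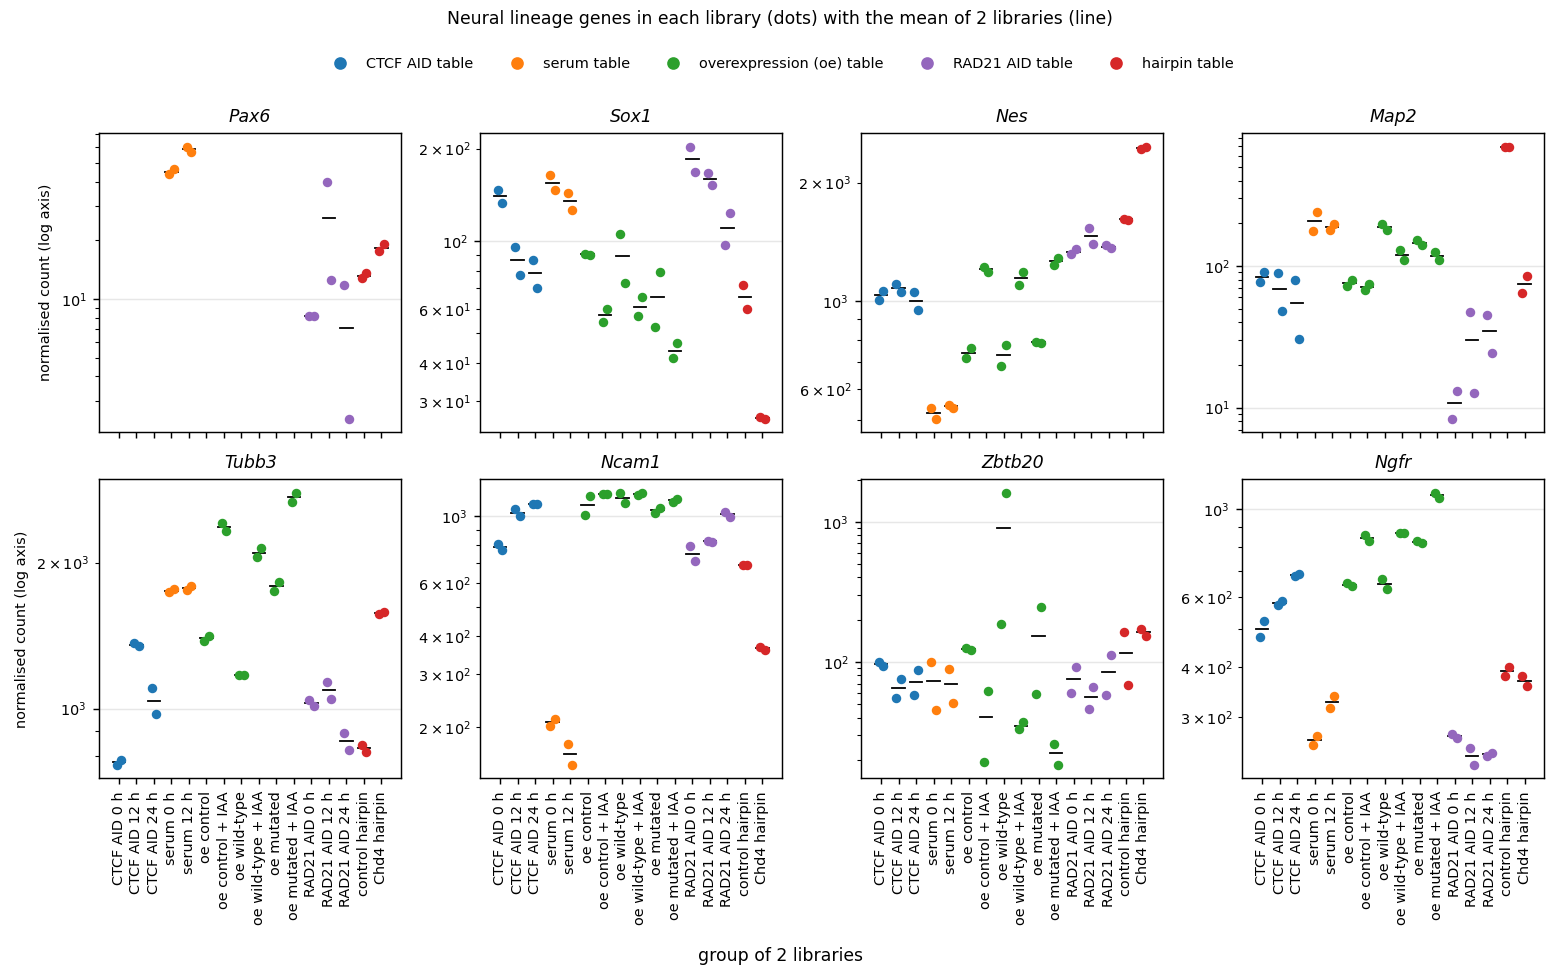
Normalised count of each gene (log axis, a scale of its own per panel) in each library, by group; dots are libraries, lines are means of 2, and colours are the 5 tables. Tubb3 and Nes sit higher in each overexpression group with IAA (+ IAA) than in the same group without it, Map2 is highest with the control hairpin, and 1 wild-type CTCF library stands far above the rest for Zbtb20.

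Loss of CTCF for 12 h was followed by a higher Tubb3 transcript. The 0 h libraries had 766 and 783 normalised counts, the 12 h libraries 1366 and 1343 and the 24 h libraries 1102 and 974. Both treated times lay above the untreated libraries with no overlap, and the 24 h libraries lay below those at 12 h. Tubb3 rose 1.75-fold at 12 h (log2 difference 0.81, SE 0.08, limma adjusted p = 0.000837) and 1.34-fold at 24 h (log2 difference 0.42, adjusted p = 0.0092). Its step from 12 to 24 h, −0.39 on the log2 scale (95% interval −0.57 to −0.21), did not pass the adjustment (adjusted p = 0.115). Here and below, adjusted p-values come from the limma fit over all genes of a table; the 8 genes were chosen with earlier results of these data known, so they are not independent evidence about the group.

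The transcripts of both surface proteins were also higher after CTCF loss. Ncam1 had 805 and 770.2 normalised counts at 0 h, 1052 and 1001 at 12 h and 1093 and 1098 at 24 h. It rose at both times, by log2 differences of 0.38 (SE 0.07, limma adjusted p = 0.00945) and 0.48 (adjusted p = 0.00319). The 12 h call was lost without the first 12 h library (0.34, adjusted p = 0.0684) or the second 0 h library (0.35, adjusted p = 0.061). Ngfr went from 478 and 523 at 0 h to 575 and 586 at 12 h and 678 and 686 at 24 h, 3 groups that did not overlap. At 12 h its log2 difference of 0.21 missed the threshold (limma adjusted p = 0.123), and at 24 h it rose by 0.45 (SE 0.08, adjusted p = 0.00949). Without the first 0 h library the 24 h values were 0.38 for Ngfr (limma adjusted p = 0.0615) and 0.40 for Tubb3 (0.0558), neither called.

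The progenitor factor Sox1 went the other way. Its levels were 147 and 133 normalised counts at 0 h, 95.5 and 77.4 at 12 h and 86.5 and 70.4 at 24 h, with both treated groups below the untreated one. Sox1 fell at 24 h (log2 difference −0.83, SE 0.20, limma adjusted p = 0.0266), while the 12 h value of −0.69 missed the threshold (adjusted p = 0.0566). The 24 h call was lost without the second 24 h library (−0.68, adjusted p = 0.0986), the first 0 h library (−0.76, 0.134) or the second (−0.90, 0.0893). Nestin did not move beyond its error: 1036 ± 36.5 normalised counts (SD, n = 2) at 0 h, 1082 ± 34.1 at 12 h and 1003 ± 72.9 at 24 h, with 95% intervals of the log2 difference of −0.11 to 0.24 and −0.22 to 0.13. Map2 libraries were far apart within a group, 89.2 and 48.2 at 12 h and 79.3 and 30.4 at 24 h, and overlapped the untreated 77.1 and 90.5. Zbtb20 had 99.4 and 93.8 normalised counts untreated, above the 55.7 and 75 at 12 h and 57.7 and 87.1 at 24 h, without passing the threshold (limma adjusted p = 0.19 and 0.278).

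In counts, 2 of the 7 genes tested were called at 12 h, both higher, where 17.8% of all genes tested were called in either direction. At 24 h 3 were called higher and 1 lower, where 22.5% of all genes were called. Between 24 and 12 h none of the 7 passed limma's adjusted threshold, 2 had an unadjusted p under 0.05, and 0.146% of all genes were called. The median log2 difference of the 7 genes was 0.06 at 12 h and −0.05 at 24 h, beside 0.00053 and 0.0024 over all genes. The summed level of the mesoderm markers read (3 of 5) was 135 to 147 normalised counts at 0 h, 151 to 189 at 12 h and 215 to 234 at 24 h. In limma 1 of these 3 was called higher at each time and 0 lower, with median log2 differences of −0.10 and −0.16. The trophoblast markers (4 of 5) summed to 1464 to 1509, 1207 to 1262 and 1262 to 1306. The part of any of these markers in the changes was not tested.

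In the serum series the same 12 h of IAA moved none of the 8 genes past the threshold by limma, where 17.0% of all genes tested were called; 2 of the 8, Ngfr and Ncam1, had an unadjusted p under 0.05. Tubb3 started at 1739 and 1763 normalised counts and stood at 1754 and 1789 after IAA. The libraries overlapped, and the 95% interval of the log2 difference, −0.08 to 0.11, excludes the 12 h value of the CTCF AID series not labelled serum, 0.81; the difference between the separately normalised tables was not tested. Ngfr had 256 and 269 at 0 h and 317 and 339.8 at 12 h, groups that did not overlap, and differed by 0.32 on the log2 scale (SE 0.10, limma adjusted p = 0.0629). Ncam1 was lower in both treated libraries, 176 and 150.3 against 202 and 213, with a log2 difference of −0.35 (adjusted p = 0.111). Pax6, the eye and forebrain regulator, was read at 43.8 and 46.2 at 0 h and at 60.5 and 56.5 at 12 h. All 4 lay above every other library in which Pax6 was read, a comparison across separately normalised tables, and the 12 h difference had an adjusted p of 0.256 in limma. The summed level of the 8 stem cell markers was 67832 to 68030 normalised counts at 0 h and 57280 to 58213 at 12 h in serum, that of the mesoderm markers (3 of 5) was 65.1 to 91.9 and 169 to 171 and that of the primitive endoderm markers (4 of 6) 259 to 269 and 303 to 371, and their part in these values was not tested.

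The untreated serum libraries held their neural transcripts at other levels than the untreated libraries of the CTCF AID table, as far as separately normalised tables can be set side by side. Ncam1 averaged 208 ± 8.13 (SD, n = 2) in serum and 788 ± 24.9 in the CTCF AID table. Nes averaged 521 ± 23.5 and 1036 ± 36.5. Tubb3 stood the other way round, at 1751 ± 17.2 and 775 ± 12.3, as did Map2, at 208 ± 45.4 and 83.8 ± 9.48. None of these differences was tested.

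**Figure D2:**
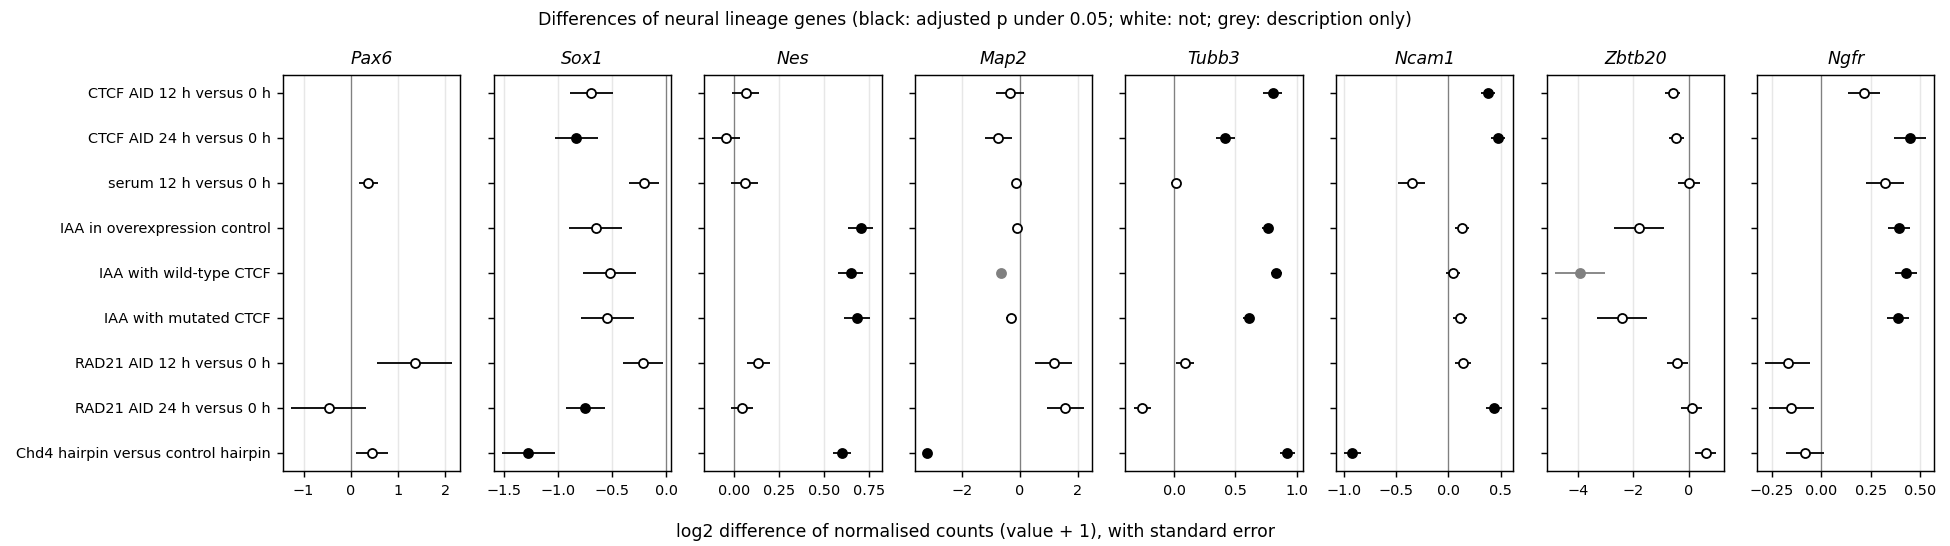
Log2 difference (value + 1) with its standard error for each gene (a panel each, with its own horizontal scale) in 9 comparisons; black symbols passed a limma adjusted p under 0.05, white did not, and grey symbols are descriptions only. Nes, Tubb3 and Ngfr are black and above 0 in all 3 IAA comparisons of the overexpression series, and Map2 reaches −3.21 with the Chd4 hairpin.

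In the overexpression series IAA raised 3 of the genes in every background. Without extra CTCF, Tubb3 had 1381 and 1409 normalised counts untreated and 2414 and 2327 with IAA. With wild-type CTCF it went from 1175 and 1171 to 2049 and 2138, and with mutated CTCF from 1746 and 1827 to 2664 and 2783. In each background both treated libraries lay above both untreated ones, and Tubb3 rose 1.7-fold (log2 difference 0.76, limma adjusted p = 1.11e-06), 1.78-fold (0.83, 1.82e-06) and 1.52-fold (0.61, 1.9e-05). Its untreated level also differed between backgrounds. With mutated CTCF Tubb3 was higher than in the control (log2 difference 0.36, limma adjusted p = 0.0017). The treatment label of these mutated libraries says otherwise than their title. With wild-type CTCF it was lower than in the control (log2 difference −0.25, limma adjusted p = 0.0318). That call was lost when only these groups were fitted (adjusted p = 0.297) and on leaving out any of the 4 libraries: without the first or second wild-type library it was −0.25 and −0.25, and without the first or second control library −0.26 and −0.23. With all 4 wild-type libraries taken as untreated, as their treatment label has them, the sign turned (log2 difference 0.17, adjusted p = 0.831).

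Nestin, which was not called in the CTCF AID table, rose here with IAA. It went from 719.7 and 761 to 1225 and 1187 normalised counts in the control background, from 686 and 776 to 1101 and 1188 with wild-type CTCF and from 790.4 and 783 to 1238 and 1289 with mutated CTCF. No treated library overlapped an untreated one. The log2 differences were 0.70, 0.65 and 0.68, each with an SE of 0.07, and the limma adjusted p-values were 4.56e-05, 0.000151 and 0.000134. Ngfr rose by 0.39, 0.43 and 0.39 on the log2 scale in the same 3 backgrounds (limma adjusted p = 0.000584, 0.000502 and 0.00113). Its untreated control libraries had 649.8 and 641, and the mutated CTCF libraries titled without IAA 832 and 823. That was a rise of 0.36 (limma adjusted p = 0.00494), not called when only these groups were fitted (adjusted p = 0.0661). The treatment label of these mutated libraries says otherwise than their title. With wild-type CTCF the untreated level was 667 and 629, overlapping the control.

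No difference between backgrounds in the response of these 3 genes to IAA passed the threshold. The response with wild-type CTCF minus that in the control was 0.07 for Tubb3 (95% interval −0.07 to 0.21), −0.06 for Nes (−0.28 to 0.16) and 0.04 for Ngfr (−0.14 to 0.21) on the log2 scale. The response of Tubb3 in the control itself was 0.76. Treatment labels of the wild-type libraries with IAA and the mutated ones without IAA say otherwise than the titles followed here. With mutated CTCF the differences were −0.16 (−0.30 to −0.01), −0.02 (−0.24 to 0.20) and −0.0043 (−0.18 to 0.17). None of the 7 genes tested passed limma's adjusted threshold in either of these comparisons of responses, and 1 in each had an unadjusted p under 0.05, Map2 with wild-type CTCF, which rests on the untreated libraries it was singled out in, and Tubb3 with mutated CTCF (limma adjusted p = 0.347). Over all genes 1.41% and 1.64% were called.

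**Figure D3:**
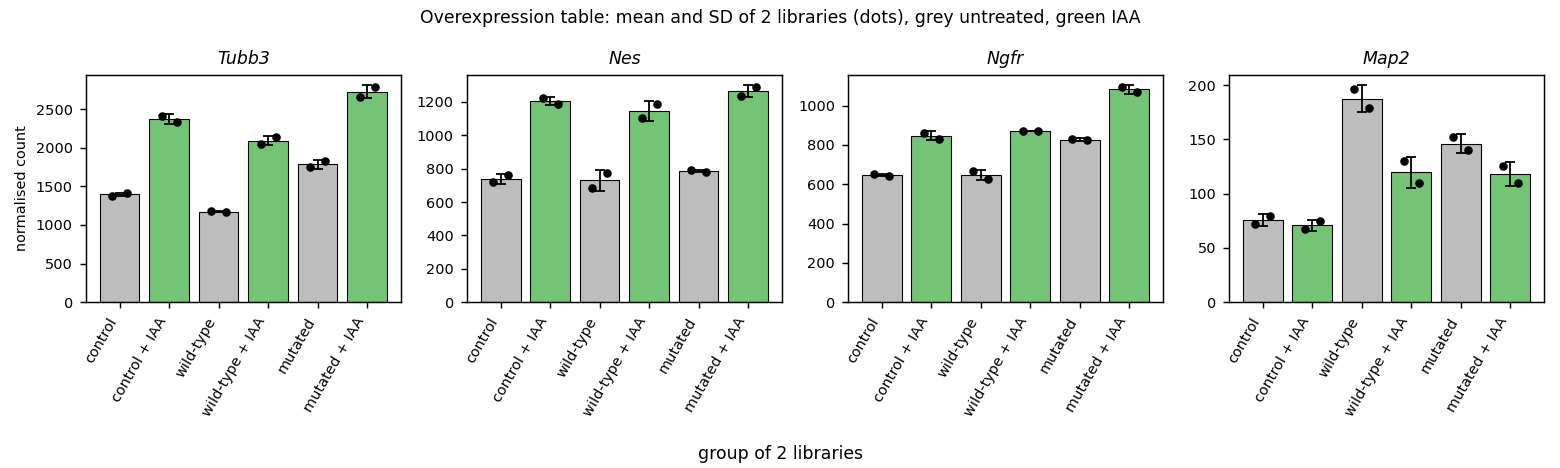
Normalised counts of Tubb3, Nes, Ngfr and Map2 in the 6 overexpression groups, as bars for the mean, error bars for the SD of 2 libraries and dots for libraries; green is with IAA. Tubb3, Nes and Ngfr are higher with IAA in each background, and Map2 is highest with wild-type CTCF without IAA.

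Map2 levels differed between the overexpression backgrounds in libraries titled without IAA, though the treatment label of the mutated ones says otherwise. Map2 was 72 and 79.8 normalised counts in the control, 196 and 179 with wild-type CTCF and 152 and 140.2 with mutated CTCF. All 4 libraries with extra CTCF lay above the control, and the wild-type libraries lay above the mutated ones. The difference of wild-type CTCF from control, 2.45-fold, had already been singled out in these data and is given without a test. Map2 was higher with mutated CTCF by 0.94 on the log2 scale (SE 0.16, limma adjusted p = 0.00668), and without the first mutated library by 0.88 (adjusted p = 0.0529). With only these groups in the fit the limma adjusted p was 0.063. The control libraries are those of the difference that had been singled out, so the value is not independent of it. With IAA the levels were 67.2 and 74.5 in the control, 129.7 and 109.6 with wild-type and 126 and 109.9 with mutated CTCF. With wild-type CTCF the log2 difference with IAA was −0.65, and between −0.77 and −0.53 on leaving out a library; it starts from the untreated libraries in which Map2 had been singled out and is also given without a test. With IAA and mutated CTCF the change was −0.31 (adjusted p = 0.215), and in the control −0.10 (adjusted p = 0.69).

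Zbtb20 had the widest gap between the 2 libraries of a group. The untreated wild-type CTCF libraries had 187 and 1607 normalised counts, and the untreated mutated libraries 58.7 and 248. With IAA the wild-type libraries had 33.2 and 36.9 and the mutated ones 26.1 and 18.4, and the control background went from 125 and 122 to 19.2 and 62. In all 3 backgrounds both treated libraries lay below both untreated ones. The log2 difference with wild-type CTCF, −3.93, had been singled out in these data and is given without a test; without the second untreated library, the highest in the series, it was −2.39. In the control and mutated backgrounds it was −1.80 (95% interval −3.79 to 0.18) and −2.41 (−4.40 to −0.42), neither past the threshold (limma adjusted p = 0.172 and 0.0987). Sox1 was also lower in every treated than in every untreated library within each background, with log2 differences of −0.65, −0.52 and −0.55, none of them called (limma adjusted p = 0.0776, 0.162 and 0.167). Ncam1 averaged 1086 ± 109 in the control and 1185 ± 3.3 with IAA, and the log2 difference of 0.13 was not called (limma adjusted p = 0.208); without the second untreated control library it was 0.23 and was called (adjusted p = 0.0445). In counts, IAA moved 3 of 7 genes in the control (25.3% of all genes called), 5 of 7 with wild-type CTCF (21.4%; Map2 and Zbtb20, the descriptions, among them) and 3 of 7 with mutated CTCF (16.2%). Without IAA 2 of 7 differed between wild-type CTCF and control (0.897% of all genes; Map2, a description, was 1 of them) and 3 of 7 between mutated CTCF and control (5.55%). The comparisons of untreated backgrounds share their control libraries with each other and with the IAA comparison of the control. Untreated is by title here. The treatment label of the mutated libraries says otherwise, and no fit followed it.

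Markers of other lineages also had other summed levels with IAA in these libraries, without a test. The summed level of the primitive endoderm markers read (5 of 6) was 48.2 to 68.9 normalised counts untreated and 126 to 129.8 with IAA in the control, 69.8 to 102.8 and 73 to 81.6 with wild-type CTCF, and 62.8 to 63.3 and 172 to 202 with mutated CTCF. That of the trophoblast markers (4 of 5) was 1468 to 1568 and 1839 to 1883 in the control, 1423 in both and 1733 to 1735 with wild-type CTCF, and 1399 to 1514 and 1865 to 1869 with mutated CTCF. A sum weighs these markers by level. In limma 1 of the 4 was called higher in each background, beside 1 lower in the control and 2 lower with wild-type CTCF. Their median log2 differences were −0.12 in the control, −0.67 with wild-type and 0.08 with mutated CTCF. The mesoderm markers (3 of 5) summed to 202 to 216 and 161 to 167 in the control, 272 to 293 and 137 to 145 with wild-type CTCF, and 184 to 189.7 and 146 to 151 with mutated CTCF. Their part in the changes of the neural genes was not tested.

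After loss of the cohesin subunit RAD21, Ncam1 was higher and Sox1 lower at 24 h. At 12 h none of the 8 passed limma's adjusted threshold and none had an unadjusted p under 0.05, where 13.0% of all genes tested were called. At 24 h 2 of 8 were called, where 13.7% of all genes were called. Ncam1 had 794 and 708 normalised counts at 0 h, 830.3 and 821 at 12 h and 1033 and 993 at 24 h. The 24 h libraries lay above all others, and Ncam1 rose by 0.43 on the log2 scale (SE 0.08, limma adjusted p = 0.015). Leaving out the first or the second 24 h library or the second 0 h library gave 0.40, 0.46 and 0.35, none called (limma adjusted p = 0.0726, 0.0535 and 0.072). Sox1 had 203 and 168 at 0 h, 167 and 152 at 12 h and 96.9 and 124 at 24 h. It fell at 24 h (log2 difference −0.75, SE 0.18, limma adjusted p = 0.0391). No fit that left out a library kept that call: the value was −0.57 and −0.92 without the first and second 24 h library, and −0.61 and −0.89 without the first and second 0 h library. It was also lost with only the 0 and 24 h groups in the fit (adjusted p = 0.0672). Markers of other lineages had other summed levels in the same libraries, without a test. The summed level of the fibroblast markers read (2 of 6) was 34.6 in both 0 h libraries, 44.6 to 54.5 at 12 h and 66.5 to 110.9 at 24 h. That of the primitive endoderm markers (5 of 6) was 111 to 124, then 175 to 184 and 155 to 175, and that of the mesoderm markers (2 of 5) 228 to 245, then 207 to 213 and 144 to 154. The trophoblast markers (3 of 5) summed to 985 to 1029, then 847 to 859 and 825 to 904. In limma 1 of these 3 was called lower at 12 h, and 1 higher and 1 lower at 24 h. Their median log2 differences were 0.03 and 0.48. The part of any of these markers in the changes was not tested.

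Tubb3, which rose after CTCF loss, was not called against 0 h after loss of RAD21. Its libraries had 1040.3 and 1011 normalised counts at 0 h, 1133 and 1048 at 12 h and 892 and 824 at 24 h. The 24 h libraries were the lowest. Against 0 h the log2 difference at 24 h was −0.26 (95% interval −0.43 to −0.09, limma adjusted p = 0.0612), and against 12 h Tubb3 fell (log2 difference −0.35, adjusted p = 0.0218), beside a rise of Ncam1 by 0.29 (adjusted p = 0.0446). That comparison called 2 of 8 genes, where 15.9% of all genes were called. The fall of Tubb3 was not called without the second 24 h (−0.29), the first 12 h (−0.29) or the second 12 h library (−0.40), and the rise of Ncam1 was called in no fit that left out a library (0.27 and 0.32 without the first and second 24 h library, 0.30 and 0.29 without those of 12 h). Ngfr had 272 and 266 at 0 h, 250.4 and 228 at 12 h and 240.2 and 244 at 24 h, with both treated groups under the untreated one and adjusted p-values of 0.354 and 0.416 in limma. Nes stayed within 95% intervals of −0.02 to 0.28 and −0.11 to 0.19 on the log2 scale. Map2 and Pax6 were near the bottom of the measured range, Map2 at 8.36 and 13 untreated, 47.4 and 12.6 at 12 h and 45.1 and 24.3 at 24 h, while Pax6 was at 8.19 and 8.13 untreated, 39.8 and 12.4 at 12 h and 11.8 and 2.43 at 24 h. In both genes 1 of the 12 h libraries stood well above the other.

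The Chd4 hairpin changed 5 of the 8 genes, in both directions. The background there was 67.4% of all genes tested, so this share is close to that of any gene in this table. Map2 had 694 and 686 normalised counts with the control hairpin and 64.5 and 84.5 with the Chd4 hairpin. It fell to 0.108 of the control level (log2 difference −3.21, SE 0.15, limma adjusted p = 8.62e-06). The level with the control hairpin was the highest of Map2 in the whole series, and that with the Chd4 hairpin lay near the 83.8 ± 9.48 (SD, n = 2) of untreated CTCF AID cells in their own table, a comparison across tables that was not tested. Sox1 fell from 71.6 and 60.1 to 26.7 and 26.4, its lowest levels in the series (log2 difference −1.28, SE 0.25, limma adjusted p = 0.00324). Ncam1 fell from 690.4 and 688 to 368 and 362 (log2 difference −0.92, adjusted p = 8.65e-05).

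The progenitor filament and the neuronal tubulin rose with the Chd4 hairpin. Nes went from 1620.0 and 1611 to 2433 and 2466 normalised counts, its highest levels in the series (log2 difference 0.60, SE 0.05, limma adjusted p = 7.01e-05). Tubb3 went from 843 and 814 to 1566 and 1578 (1.9-fold, log2 difference 0.92, adjusted p = 2.51e-05). The groups did not overlap in any of the 5 genes called, nor in Ngfr and Pax6, which were not called. How many of all genes show no overlap was not counted. Ngfr, at 382 and 401 with the control and 379.8 and 359 with the Chd4 hairpin, did not pass the threshold (95% interval of the log2 difference −0.31 to 0.14). Nor did Pax6, at 12.7 and 13.6 with the control and 17.6 and 19.1 with the Chd4 hairpin (−0.36 to 1.25). Zbtb20 had 163 and 68.7 with the control and 171 and 154 with the Chd4 hairpin, a log2 difference of 0.61 (limma adjusted p = 0.179). Without the first control library it was 1.23 and was called (adjusted p = 0.00049).

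Markers of other lineages had other summed levels in the same libraries, without a test. The summed level of the 8 stem cell markers was 123242 to 124942 normalised counts with the control hairpin and 77462 to 78745 with the Chd4 hairpin. That of the primitive endoderm markers read (5 of 6) was 100.5 to 119 and 926 to 938, that of the mesoderm markers (3 of 5) 186 to 279 and 452 to 483, that of the fibroblast markers (3 of 6) 239 to 316 and 559 to 628, and that of the trophoblast markers (3 of 5) 1702 to 1819 and 1970 to 2071. A sum weighs these markers by level. In limma 3 of the 5 primitive endoderm markers were called higher and 2 lower, where 67.4% of all genes were called. Of the trophoblast markers 2 of 3 were called higher and 1 lower, and of the mesoderm markers 2 of 3 higher and 0 lower. Of the fibroblast markers tested 2 of 2 were called higher, and of the 8 stem cell markers 0 higher and 6 lower. The fibroblast marker Col1a2 was at 0 in 1 of the 2 control hairpin libraries, and no other marker read was at 0 in any of the 4. Their part in the changes of the neural genes was not tested.

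**Figure D4:**
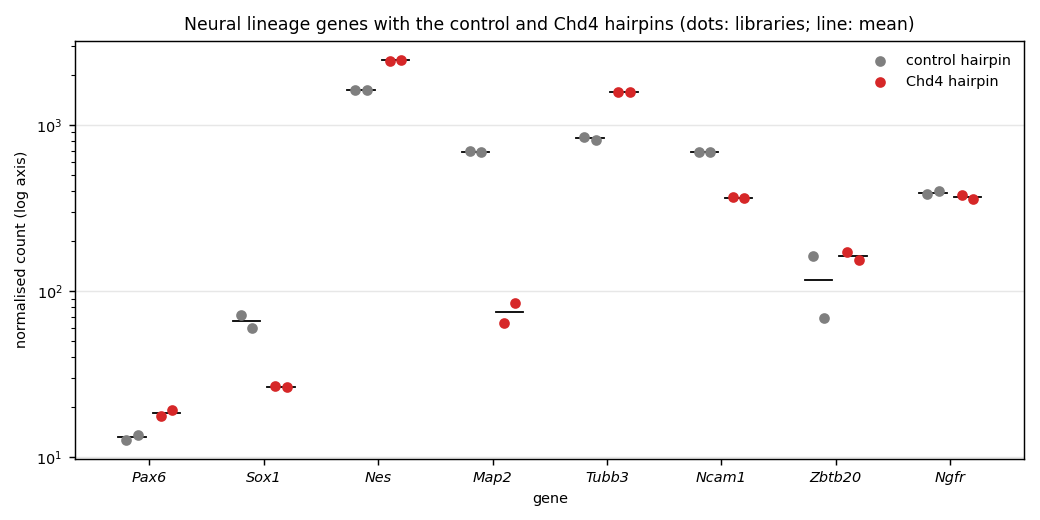
Normalised counts (log axis) of the 8 genes with the control hairpin (grey) and the Chd4 hairpin (red), with dots for libraries and lines for means of 2. Map2, Sox1 and Ncam1 are lower and Nes and Tubb3 higher with the Chd4 hairpin. Of the 8 genes only Zbtb20 has groups that overlap, and how many of all genes show no overlap was not counted.

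Other genes of the neuronal cytoskeleton and of RNA-binding proteins of neurons were read from a list of 20. After 12 h of CTCF loss 5 of the 14 tested rose and 2 fell, where 17.8% of all genes were called (median log2 difference 0.12, beside 0.00053 over all genes), and at 24 h 7 rose and 2 fell, where 22.5% were called (median 0.25). In serum 3 of 18 rose and 2 fell (17.0% of all genes called, median −0.08), and with IAA in the overexpression control 5 of 14 rose and 3 fell (25.3%, median −0.09). Mapt, which encodes the axonal microtubule protein tau, rose in each of these: from 147 ± 16.1 to 394 ± 18.2 normalised counts (SD, n = 2) at 12 h in the CTCF AID table (log2 difference 1.42, limma adjusted p = 0.00133), from 84.1 ± 1.57 to 189 ± 10.2 in serum (1.16, 0.00173) and from 103 ± 40.5 to 524 ± 33.2 in the overexpression control (2.40, 0.000119). After 12 h of RAD21 loss Mapt was at 387 ± 55.6 against 358 ± 33.8 (limma adjusted p = 0.686). In serum, then, Mapt rose with IAA while the interval of Tubb3 included 0. The tubulin gene Tubb2a fell from 995 ± 12.8 to 503 ± 10.4 at 12 h of CTCF loss, when Tubb3 rose (log2 difference −0.98, limma adjusted p = 0.000349). It also fell after RAD21 loss, when Tubb3 was not called against 0 h, from 1083 ± 12.2 to 832 ± 5.65 at 12 h and 614 ± 16.7 at 24 h (limma adjusted p = 0.014 and 0.000871). After CTCF loss Map1b, which encodes another microtubule-associated protein, rose from 2403 ± 48.4 to 4201 ± 106 (0.81).

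With RAD21 loss 1 of 15 genes of this list rose and 2 fell at 12 h (13.0% of all genes called, median −0.07), and 2 rose and 4 fell at 24 h (13.7%, median −0.16). With the Chd4 hairpin 5 of 17 rose and 8 fell, beside 67.4% of all genes called (median −0.52, beside 0.0062 over all genes). The neurofilament genes Nefm and Nefh rose there, from 114 ± 11 to 521 ± 19.3 and from 423 ± 3.93 to 1522 ± 11.1 normalised counts (log2 differences 2.18 and 1.85, limma adjusted p = 1.51e-05 and 3.54e-06). Stmn2, which encodes a regulator of microtubule assembly in growing neurites, fell with Map2, from 4989 ± 3.19 to 301 ± 67.9 (log2 difference −4.06, limma adjusted p = 3.25e-06). In untreated CTCF AID cells of the CTCF table Stmn2 averaged 2611 ± 3.08, a level between those of the 2 hairpins that was not tested across tables.

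**Figure D5:**
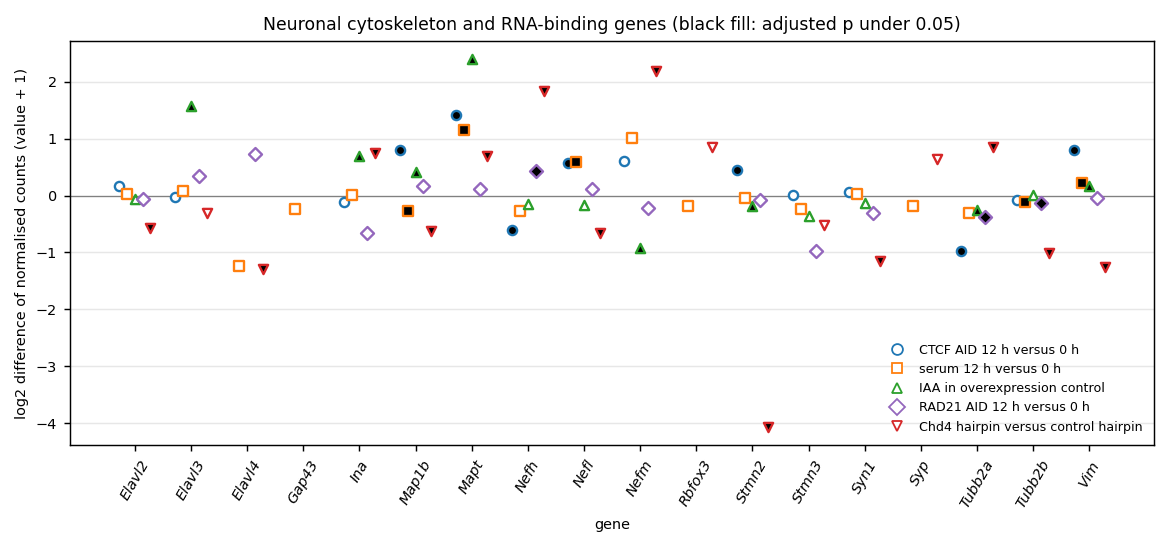
Log2 difference (value + 1) of each gene read from the list of neuronal cytoskeleton and RNA-binding genes in 5 comparisons, with symbols and colours for comparisons and a black fill for a limma adjusted p under 0.05. Mapt is above 0 and called after 12 h of CTCF loss, in serum and in the overexpression control, and Stmn2 reaches −4.06 with the Chd4 hairpin.

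Around the receptor Ngfr, 12 genes of neurotrophin signalling were listed. After CTCF loss none of the 6 tested rose and 3 fell at both 12 and 24 h, where 17.8% and 22.5% of all genes were called (median log2 difference −0.27 and −0.13). Ngfr itself rose at 24 h, whereas Sort1, the co-receptor sortilin, fell at 12 h from 455 ± 33.3 to 271 ± 4.81 normalised counts (log2 difference −0.74, limma adjusted p = 0.00419). Traf6, an adaptor that can bind the p75 receptor, fell from 661 ± 4.58 to 171 ± 1.45 at 12 h (−1.95, limma adjusted p = 0.000103), from 558 ± 2.5 to 93.4 ± 13.2 in serum (−2.57, 5.23e-05) and from 741 ± 12.5 to 228 ± 1.45 in the overexpression control (−1.69, 3.21e-08). With groups by sample title, the response of Traf6 to IAA differed between overexpression backgrounds. Treatment labels of the wild-type libraries with IAA and the mutated ones without IAA say otherwise, and no fit of responses followed them. With wild-type CTCF Traf6 went only from 824 ± 6.58 to 587 ± 8.06. That response differed from the control by 1.21 (SE 0.09, limma adjusted p = 3.66e-05), and that with mutated CTCF by 1.23 (adjusted p = 2.32e-05). For Ngfr the same 2 differences were 0.04 and −0.0043. With the Chd4 hairpin 4 of 9 genes of this list rose and 2 fell, a share like the 67.4% of all genes. The BDNF receptor Ntrk2 rose from 9.39 ± 5.32 to 153 ± 37.5 and the NT-3 receptor Ntrk3 fell from 193 ± 30.9 to 71.2 ± 3.18 (limma adjusted p = 0.00018 and 0.000459), while Ngfr was at 369.5 ± 14.4 beside 391 ± 13.6.

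Across the 16 group means, centred within each table, Nes and Tubb3 varied most alike among the 7 genes read everywhere (Pearson r = 0.86, and 0.82 without the hairpin table). Map2 and Ncam1 had an r of 0.65 that was 0.14 without the hairpin table, and Ngfr and Tubb3 one of 0.65 (0.79 without it). The lowest r over all 16 was that of Tubb3 and Sox1, −0.78 (−0.70 without the hairpin table), and Nes and Zbtb20 had −0.75 (−0.90). These points share libraries, tables and treatments, so r is a description. Among up to 8969 candidate genes, Nes was most like Fgfr1 (r = 0.97), a fibroblast growth factor receptor gene, and Tubb3 most like Twnk (0.97), which encodes the mitochondrial helicase twinkle. Map2 was most like Aldh9a1 (0.95, and 0.85 without the hairpin table), Ncam1 most like Fbxo38 (0.95), Sox1 most like Hsd17b7 (0.94), Ngfr most like Fkbp15 (0.92) and Zbtb20 most like Irs2 (0.92).

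On GRCm38 with the GENCODE M21 annotation all 8 genes are protein coding. Tubb3 lies on chromosome 8 (123411424 to 123422015), Nes lies on chromosome 3 (87971078 to 87980451), Ngfr on the minus strand of chromosome 11 (95568818 to 95587735) and Sox1 on chromosome 8 (12395295 to 12400126). Ncam1 lies on the minus strand of chromosome 9 (49502136 to 49798925), Map2 on chromosome 1 (66175273 to 66442583), Pax6 on chromosome 2 (105668900 to 105697364) and Zbtb20 on chromosome 16 (42875881 to 43642602). Antisense genes overlap 4.81% of the exon bases of Ncam1, 0.754% of Map2 and 0.338% of Zbtb20. Whether the counting used strand is not given in the sources used here, so reads from these overlaps cannot be told apart.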

How the data were processed

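RNA was sequenced from 32 libraries of E14 mouse embryonic stem cells, in 16 groups of 2. The authors' deposited values are normalised counts, a signal that is never negative, in 5 tables; per the submitters' processing notes Trim Galore, Bowtie2, STAR, RSEM, DESeq2 and the build mm10 were used, with no versions or roles. Whole reads could not be recovered from the values, so no count test was run. The last line of the CTCF table breaks off, and this 1 incomplete line was dropped.

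Values were analysed as log2(value + 1). Genes averaging 10 or more in a table were fitted with limma 3.58.1 (R 4.3.3), all groups of a table together, with a mean trend and Benjamini-Hochberg adjustment; called means an adjusted p under 0.05. Fitted folds are on the log2(value + 1) scale, which understates changes of low genes. Tests were made only within a table, in 15 comparisons. The members, gene lists and tests were chosen with earlier results of these data known. All 8 members are named. From each list at most the 2 largest rises and 2 largest falls per comparison are named, provided they were called and the higher group averaged 50 or more. Alternatives were other pseudocounts, filters, scalings, groups in the fit, a replicate block and leaving out libraries. The fit was tested on simulated data. Promoter sequences are from RefSeq on GRCm38.p6, matched by symbol for 7 of 8 members.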

Additional observations from a re-analysis of the deposited data

Results flagged for a closer look

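Values of Ncam1, Ngfr and Tubb3 lay on opposite sides of 0 in different series, with every library of each treated group on its own side of the untreated ones. The tables were normalised separately and none of these differences was tested. Ncam1 was higher after 12 h of CTCF loss in the CTCF AID series not labelled serum (log2 difference 0.38) and lower in serum (−0.35), a gap of 0.73. Its serum value differed by −0.49 from that of 12 h of RAD21 loss, and differed by −0.48 from that of IAA in the overexpression control and by −0.46 from that with mutated CTCF. Only the first of these Ncam1 values passed its own adjusted threshold.

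Ngfr was higher with loss of CTCF and lower with loss of RAD21. At 12 h the CTCF value minus the RAD21 value was 0.39, and the serum value minus the RAD21 value was 0.49. The RAD21 value minus that of IAA in the overexpression series was −0.56 for the control, −0.60 for wild-type CTCF and −0.56 for mutated CTCF. At 24 h CTCF minus RAD21 was 0.60 for Ngfr and 0.68 for Tubb3. The RAD21 values themselves were not called for either gene. Nor were the 12 h Ngfr values of the CTCF AID series and of serum (limma adjusted p = 0.123 and 0.0629). The CTCF and RAD21 series also differ in the molecule given and its dose.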

How the results depend on the processing

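Of 110 pairs of a member and a comparison, 31 were called (the pairs given as descriptions included), and 16 of these were tested and called in every alternative fit. No call was lost with a pseudocount of 10, without the filter, with quantile normalisation or with trimmed-mean scaling; with a mean of at least 100, 1 called pair, Sox1 with the Chd4 hairpin, was not tested. Fitting only the groups compared lost 5 calls: the count of members called was 1 for RAD21 at 24 h, 0 for wild-type CTCF against control and 1 for mutated CTCF against control. The cause was not tested. Asking also for a 2-fold change left 0 members at 12 h and 0 at 24 h of CTCF loss (4.45% and 5.99% of all genes passed this rule), 0 for RAD21 at 24 h against 0 h and 0 against 12 h (1.06% and 1.21%), 2 of 8 for the Chd4 hairpin (28.8%), 0 for IAA in the overexpression control (3.94%), 1 with wild-type (2.09%) and 0 with mutated CTCF (1.82%), 1 for wild-type against control (0.129%) and 0 for mutated against control (0.309%). The member left with IAA and wild-type CTCF is Zbtb20, and that for wild-type against control is Map2. Both values had been singled out in these data, so these counts are descriptions. Grouping by the treatment label left 0 members for wild-type against control and turned Tubb3 to 0.17. Leaving out a library in turn gave 1 to 2 members for CTCF at 12 h, 1 to 4 at 24 h, 0 to 1 for RAD21 at 24 h against 0 h and 0 to 1 against 12 h, 3 to 4 for IAA with wild-type CTCF and 1 to 1 for wild-type against control. A group of 1 library is then assumed to vary like the others. Map2 and Zbtb20, the descriptions, are again among the members counted with wild-type CTCF.

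Replicate numbers give no pairing: the differences between libraries 1 and 2 of groups correlated at −0.063 to 0.102 across genes. A fit with the number as a replicate block left 1 member called for RAD21 at 24 h (Sox1 lost, adjusted p = 0.0648) and 1 for 24 against 12 h (Ncam1 lost, 0.0512), and added Sox1 at 12 h of CTCF loss (0.0491) and Zbtb20 with the Chd4 hairpin (0.0487). Depth in reads is unknown, and values near 10 or lower, as for Map2 and Pax6 in the RAD21 table, scatter widely.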

Other observations

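Early neural regulators were read from a list of 20. None of the 6 tested was called by limma after 12 h of CTCF loss (17.8% of all genes called), and 3 of 6 were called higher at 24 h (22.5% of all genes called in either direction). At 24 h Otx2, a regulator of the anterior brain, rose from 27.1 ± 2.66 to 72.6 ± 15.1 normalised counts (SD, n = 2; adjusted p = 0.0128) and Sox21 from 431 ± 67.3 to 656 ± 70.5 (adjusted p = 0.0185). Sox1 fell at the same time. With the Chd4 hairpin 0 of 9 rose and 4 fell in limma, where 67.4% of all genes were called (median log2 difference −0.90, beside 0.0062 over all genes). Msi1, an RNA-binding protein of neural progenitors, fell from 1604 ± 23.9 to 487 ± 26.4 and Sox21 from 656 ± 1.03 to 207 ± 12.2 (limma adjusted p = 5.21e-06 and 1.66e-05).

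Of the 8 genes of the REST repressor complex, which silences neuronal genes outside neurons, 2 rose and 3 fell after 12 h of CTCF loss (17.8% of all genes called), 0 rose and 3 fell in serum (17.0%), 2 rose and 0 fell after 12 h of RAD21 loss (13.0%), and 1 rose and 5 fell with the Chd4 hairpin, a share near the 67.4% of all genes. Rest itself rose at 12 h of RAD21 loss, from 5311 ± 49.1 to 6465 ± 29.7 normalised counts (log2 difference 0.28, limma adjusted p = 0.00628). At 24 h of RAD21 loss 0 of the 8 genes rose and 1 fell against 0 h (13.7% of all genes called). Against 12 h 0 rose and 3 fell (15.9%). Rcor2, a co-repressor of REST, fell with CTCF loss at 12 h from 1634 ± 34 to 1159 ± 56.5 and with the Chd4 hairpin from 1492 ± 170.5 to 921 ± 29.9 (limma adjusted p = 0.00771 and 0.00047). Among neural adhesion genes 4 of 7 rose and 3 fell with the Chd4 hairpin, where 67.4% of all genes were called: L1cam rose from 25.2 ± 5.35 to 65.2 ± 22.7 and Cdh2, N-cadherin, fell from 153 ± 3.31 to 72.2 ± 7.77, as Ncam1 did.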
